A study of Mus musculus with 14 samples.

Results

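The collagen and laminin genes were followed here through the cells of the mouse spinal cord. Members were all gene symbols made of Col, a number, a and a number, or of Lam, one of the letters a, b or c, and a digit. This gave 44 collagen and 11 laminin genes, 55 of the 55335 genes listed in the files, and each of the 55 had at least 1 read with a unique molecular identifier (UMI).

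Collagens are triple helices of alpha chains. The fibrillar collagens (types I, II, III, V, XI, XXIV and XXVII) give tissues their tensile strength, and type IV collagen forms the network of basement membranes. Laminins are trimers of an alpha, a beta and a gamma chain that polymerise on the cell surface and start basement membrane assembly. In the central nervous system the vessel wall carries such a membrane on the endothelial and mural side and another under the astrocyte endfeet, while fibrillar collagen is mostly found in the meninges and around larger vessels.

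The transcripts of single cells were sequenced in 14 libraries, each from whole spinal cord, at an age labelled P115-120 day. The study asked what the myeloid receptor Clec7a does in microglia in a model of amyotrophic lateral sclerosis at mid-disease. The SOD1G93A group (3 libraries) carried the mutant human SOD1 transgene of the strain B6SJL-Tg(SOD1*G93A)1Gur/J, which is driven by the human SOD1 promoter and is therefore not limited to one cell type. The Clec7a-KO group (4 libraries, strain B6.129S6-Clec7atm1Gdb/J) lacked Clec7a in all cells. SOD1G93A/Clec7a-KO (4 libraries) had both alterations, and nTg (3 libraries) is the non-transgenic group. The strain labels differ between the groups, so strain background and genotype cannot be told apart. All animals were perfused with saline, and the cords were digested with enzymes and depleted of myelin before capture. The labels do not say outright that each library is 1 animal, so the p-values measure the spread between these libraries. A number after a group name is the replicate number of a library.

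After filtering, 89756 of 108892 barcodes were kept, 2558 to 10264 per library, with 27344575 to 123349825 UMIs per library and a median of 5369 to 17571 UMIs per cell. Pairs of libraries shared 0.0466% to 0.474% of their barcodes. Clec7a itself matched the labels in microglia, with 29.0 to 87.3 counts per 1e+06 UMIs (CPM) in nTg, 886 to 1039.9 in SOD1G93A, 0.749 to 2.53 in Clec7a-KO and 1.97 to 3.79 in SOD1G93A/Clec7a-KO. Cell classes were rebuilt from marker genes, with the collagen and laminin genes kept out of the clustering. Class names stand for clusters that are endothelial-like, mural-like and so on. They held 51182 microglia, 11618 endothelial cells, 7650 ependymal cells, 5826 astrocytes, 3910 oligodendrocyte precursors, 1725 mural cells (pericytes and smooth muscle), 1265 neurons, 743 T and NK cells, 446 border-associated macrophages and 92 fibroblasts. A further 3692 cells carried endothelial and mural markers together and were kept apart as mixed cells. Levels are CPM of the summed UMIs of a class in a library, after TMM scaling (a factor per library that centres the typical gene). The reads are counted at the 3' end without regard to gene length, so a level is compared between classes or groups for 1 gene, not between genes. Groups of 3 or 4 libraries can lack overlap by chance, and the share of all genes without overlap is not given here. Lack of overlap is therefore a description and not a test.

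The fibroblasts had the highest level of most of these genes. Of the 55 members, 12 stayed under 10 CPM in every class, and 29 of the other 43 were highest in the fibroblasts, the matrix-secreting cells of the meninges and large vessels. The leading class was the oligodendrocyte precursors for 5 members, the mural cells for 3, the ependymal cells for 2, and the endothelial cells, neurons, border-associated macrophages and T and NK cells for 1 each. In 7 of the 29 the next class lay inside the counting interval of the fibroblasts (Col4a1, Col4a2, Lama4 and Lamb2 with mural cells next, Col5a3, Col25a1 and Col27a1). Col5a3 had 109 CPM (48 UMIs) in the fibroblasts and 90.3 CPM in astrocytes, and Col27a1 had 116 CPM (51 UMIs) and 99.2 CPM in microglia, so the lead is not resolved for these genes. In 23 of the 43 the leading class was at least 3 times above the next class, and in 7 it was at least 20 times above it. Libraries held 1 to 15 fibroblasts, and only 2 libraries had 10 or more, so the fibroblast level is that of all 92 cells together, with an exact Poisson interval that covers counting error only.

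**Figure D1:**
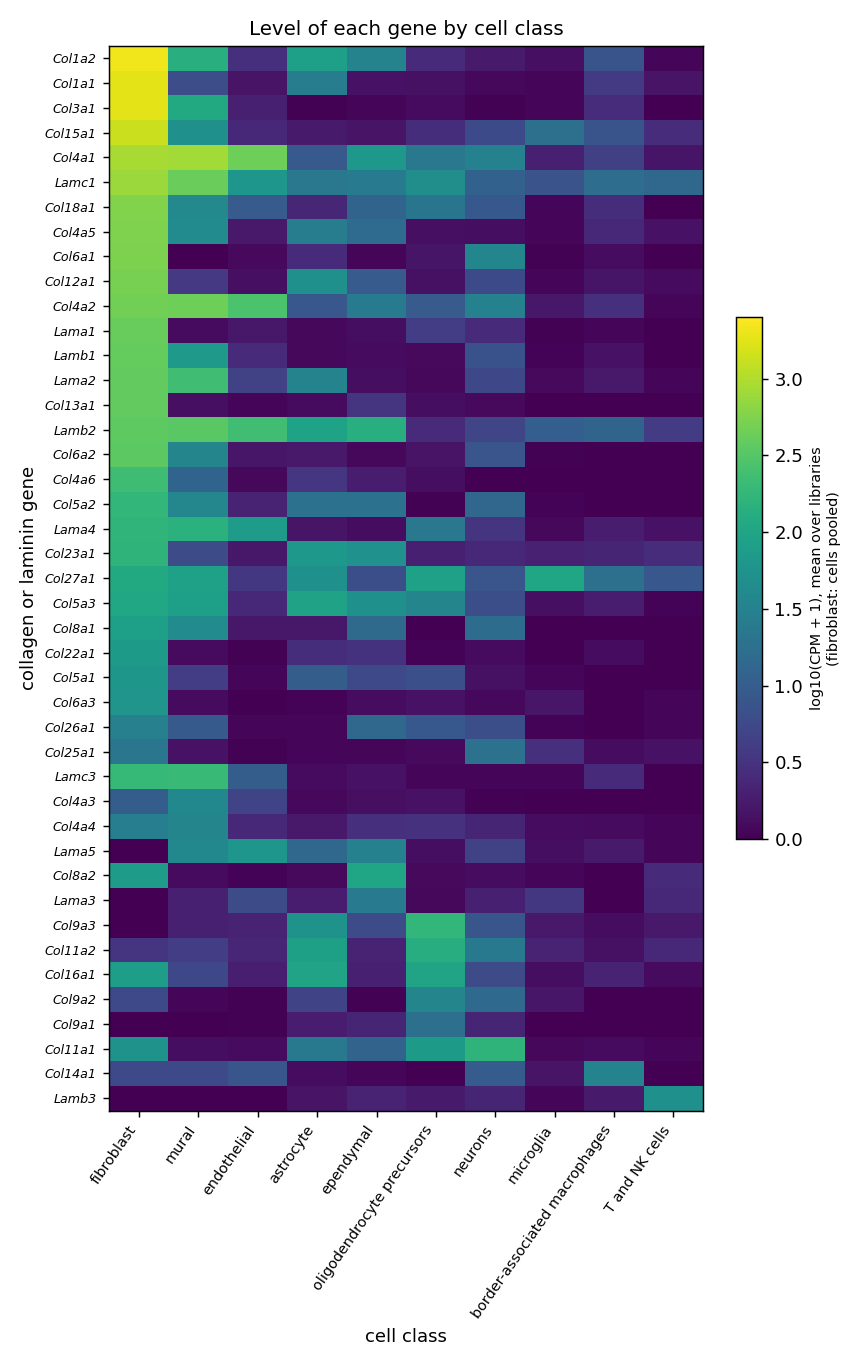
Levels of the members with a leading class in the cell classes. Each row is a gene and each column a class, and the colour is the mean level over libraries (pooled over all cells for the fibroblasts) as log10(CPM + 1). The fibroblast column is the brightest for 29 of the 43 genes.

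The chains of type I and type III collagen, the main interstitial fibrils, were far higher in the fibroblasts than in any other class. Col1a1 and Col1a2 encode the 2 chains of type I collagen. Col1a1 (chromosome 11, 94936224 to 94953042, GRCm38) reached 1848 CPM (95% interval 1723 to 1979.6), and the next class, the astrocytes, had 26.1 CPM. Col1a2 reached 2146 CPM (2011 to 2288) and was also present in mural cells at 134 CPM. Col3a1, the type III chain, had 1793 CPM against 114 CPM in mural cells. Col15a1, a collagen of the zone between basement membrane and interstitium, had 1354 CPM (1248 to 1467), 27.0 times the mural level. Lama1, the alpha chain of laminin 111, was 128 times higher in the fibroblasts (405 CPM) than in the next class. Col13a1, a transmembrane collagen, was 158 times higher (378 CPM), and Col6a3, a chain of the microfibrillar type VI collagen, 97.9 times (59.2 CPM).

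Several chains of the vascular basement membrane were at like levels in fibroblasts and mural cells. Col4a1 had 894 CPM (808 to 987) in the fibroblasts and 835 CPM in mural cells, inside that interval. Lamb2, the beta chain of laminins 421 and 521, had 357 and 342 CPM, and Lamc3, a gamma chain, was highest in the mural cells (196 CPM) with 191 CPM in the fibroblasts. These pairs of neighbours do not differ beyond counting error. Other chains were higher in the fibroblasts beyond it, with 778 against 414 CPM for Lamc1, 387 against 227 CPM for Lama2 and 391 against 67.9 CPM for Lamb1. Col18a1 (569 against 39.0 CPM) and Col4a5 (548 against 42.4 CPM) were higher in the fibroblasts as well. Mural cells led for Col4a3 (37.1 CPM against 9.10 CPM in the fibroblasts) and for Col4a4 (34.3 against 27.3 CPM), where the fibroblast level rests on 12 UMIs (14.1 to 47.7 CPM) and the lead is not resolved. The endothelial cells led only for Lama5, the alpha chain of laminin 511, with 60.1 CPM against 37.1 CPM in mural cells.

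Outside the vessel wall, other classes led for single members. The oligodendrocyte precursors led for Col9a1, Col9a2, Col9a3 and Col11a2, chains known from cartilage, with 17.1, 34.0, 176 and 131 CPM, and for Col16a1, where the astrocytes were within 1.02 times. Neurons led for Col11a1 (160 CPM, with 70.6 CPM in the precursors), and ependymal cells for Lama3 (23.2 CPM, with 4.92 CPM in endothelial cells). For Col8a2, a short-chain collagen, the ependymal level of 101 CPM lay inside the counting interval of the fibroblasts (72.8 CPM, 49.8 to 103), so that lead is not resolved. Col14a1, which decorates fibrils, led in the border-associated macrophages (32.3 CPM), and Lamb3, a chain of laminin 332, in T and NK cells, 40.8 times above the next class (50.4 CPM, 152 UMIs).

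Summed over all kept cells, the 55 members took a smaller share of the UMIs in both groups with the transgene. The summed level was 825 ± 43.8 CPM (SD, n = 3) in nTg and 806 ± 65.7 (n = 4) in Clec7a-KO, against 309 ± 21.6 (n = 3) in SOD1G93A and 260 ± 34.1 (n = 4) in SOD1G93A/Clec7a-KO. The lowest library without the transgene had 712 CPM and the highest with it 327 CPM, so the groups did not overlap. The share of vascular cells and fibroblasts among the kept cells moved alongside, with 26.5% ± 2.42 and 27.0% ± 1.36 in nTg and Clec7a-KO and 15.3% ± 1.45 and 13.1% ± 5.13 in the transgenic groups. Microglia made up 32.3% ± 4.34, 41.8% ± 4.03, 67.7% ± 2.58 and 72.7% ± 5.67 of the cells in nTg, Clec7a-KO, SOD1G93A and SOD1G93A/Clec7a-KO. Shares of captured cells also depend on dissociation, and that part was not tested. Of all 478641 member UMIs, 26.7% came from mixed cells, 25.1% from endothelial cells, 15.3% from microglia, 14.9% from ependymal cells and 1.42% from the few fibroblasts.

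**Figure D2:**
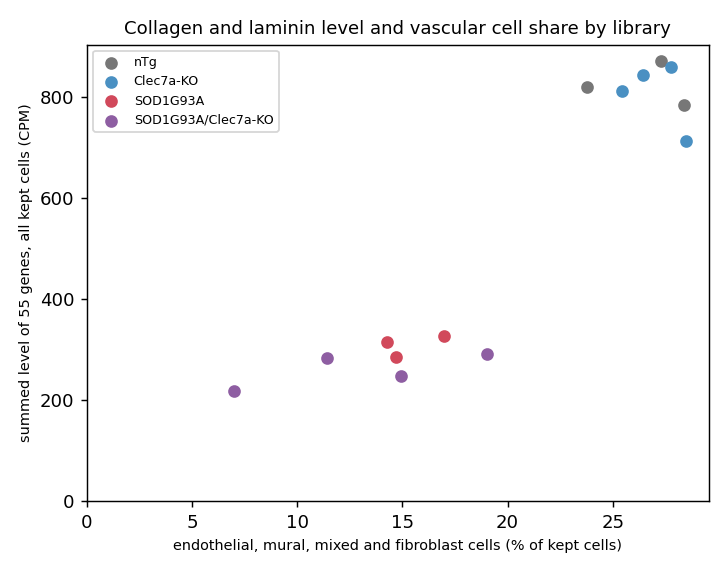
Summed level of the 55 members over all kept cells against the share of vascular cells and fibroblasts. Each point is 1 library, the x axis is the percent of kept cells and the y axis the summed level in CPM. The 7 libraries without the transgene lie between 712 and 871 CPM and the 7 with it between 218 and 327 CPM.

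Within the endothelial cells the same sum had no such gap between groups. It was 1145 ± 73.2 CPM in nTg, 1238 ± 170 in Clec7a-KO, 1212 ± 39.4 in SOD1G93A and 1215 ± 285 in SOD1G93A/Clec7a-KO. Of the 55 members, 20 passed the low-count filter there, and none passed the edgeR quasi-likelihood test at an adjusted p under 0.05 in SOD1G93A against nTg or in SOD1G93A/Clec7a-KO against Clec7a-KO, where 0.629% and 0.826% of all tested genes passed. At an unadjusted p under 0.05 there were 3 members in each comparison, and DESeq2 called 0 in both. Here and below the shares of all genes are those at the adjusted threshold. The share at an unadjusted p is not given, so the counts at that limit are a description only.

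Col4a1, the chain that pairs with Col4a2 in every vascular basement membrane, was at 484, 358 and 407 CPM in the nTg endothelial libraries and at 442, 425 and 449.9 CPM in SOD1G93A. It was at 514, 576, 438 and 376 CPM in Clec7a-KO and at 432, 633, 327 and 423 CPM in SOD1G93A/Clec7a-KO. All 4 groups overlapped. Col4a2 (GRCm38 chromosome 8, 11312805 to 11449287) starts on the opposite strand from Col4a1, and the 5' ends of the pair overlap over 22 bases. Its means were 271 ± 16.4 (n = 3), 293 ± 54.6 (n = 4), 253 ± 37.6 (n = 3) and 267 ± 89.0 CPM (n = 4) in nTg, Clec7a-KO, SOD1G93A and SOD1G93A/Clec7a-KO, and again the groups overlapped.

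No endothelial laminin chain passed the test. Lamb2 was at 192, 205 and 202 CPM in nTg and 273, 211 and 236 CPM in SOD1G93A, groups that did not overlap (0.27 on the log2 scale, SE 0.15, adjusted p = 0.977 by edgeR). Its Clec7a-KO libraries, at 216, 216, 229 and 207 CPM, were also all above nTg, and they overlapped with SOD1G93A/Clec7a-KO at 232, 311, 249.6 and 217 CPM. Lama4, the alpha chain of laminin 411, had means between 72.7 and 76.3 CPM in the 4 groups, Lama5 between 57.8 and 65.0 CPM, and Lamc1, the common gamma chain, between 55.5 and 66.3 CPM. The means of Lamc3 were 6.08, 9.69, 10.1 and 9.41 CPM in nTg, Clec7a-KO, SOD1G93A and SOD1G93A/Clec7a-KO. Lamb1, a low beta chain with 183 endothelial UMIs, was at 2.31, 3.17, 2.10 and 1.68 CPM in Clec7a-KO and at 1.61, 0.455, 1.24 and 0 CPM in SOD1G93A/Clec7a-KO, without overlap (log2 fold change -1.26, SE 0.50, edgeR adjusted p = 0.389). The least taken as detectable, 3 UMIs, is 1.36 CPM in the second of these SOD1G93A/Clec7a-KO libraries. Its 0.455 CPM and the 0 CPM of the fourth library lie under that floor. The Lamb1 groups overlapped in SOD1G93A against nTg, with a log2 fold change of 0.33 (SE 0.49). Its interaction of transgene and Clec7a was -1.59 (SE 0.71), the 1 endothelial member at an unadjusted p under 0.05 in that test, and it did not pass the adjusted edgeR threshold.

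Col4a3, a type IV chain that is low in endothelial cells, was lower in every library with the transgene. It was at 6.35, 5.32 and 6.38 CPM in nTg and at 2.65, 3.25 and 2.48 CPM in SOD1G93A (log2 fold change -1.10, SE 0.29, edgeR adjusted p = 0.154). Its Clec7a-KO libraries had 4.17, 7.01, 4.35 and 3.68 CPM and those of SOD1G93A/Clec7a-KO 3.22, 1.82, 2.23 and 2.57 CPM (-0.94, SE 0.28, edgeR adjusted p = 0.227). The groups did not overlap in either comparison, and neither difference passed the adjusted threshold. In mural cells Col4a3 was at 37.7, 49.3, 54.1 and 66.4 CPM in Clec7a-KO and at 13.2, 36.4, 19.9 and 32.7 CPM in SOD1G93A/Clec7a-KO, again without overlap (-1.11, SE 0.31, edgeR adjusted p = 0.137). Its mural log2 fold change in SOD1G93A against nTg was -0.22 (SE 0.32), with an unadjusted edgeR p of 0.492. Col4a3 and Lamb1 here, and Col15a1 and Col18a1 in mural cells, were chosen after their values were seen.

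Col18a1, the precursor of endostatin, had 10.9, 12.2 and 19.2 CPM in SOD1G93A and a mean of 7.36 ± 0.933 CPM (n = 3) in nTg, with an edgeR adjusted p of 0.178. Its mean in SOD1G93A/Clec7a-KO was 7.25 ± 2.17 CPM (n = 4), and in Clec7a-KO 6.22 ± 1.01 CPM (n = 4). Microglial markers, 12 genes summed, moved with the groups in the endothelial libraries, at 94.2 to 154 CPM in nTg, 120 to 376 in Clec7a-KO, 443 to 887 in SOD1G93A and 398 to 1182 in SOD1G93A/Clec7a-KO. Their part in these results was not tested. Different clusters held the class as well, one led by Cxcl12, Abcb1a and Cldn5 with 49.0% of the nTg endothelial cells and one led by Cldn5, Ly6a and Ctla2a with 54.2% of those of SOD1G93A.

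In mural cells no member passed the test either. The sum was higher in every SOD1G93A library than in nTg, but the groups overlapped in the comparison without Clec7a. The summed member level was 3404 ± 278 CPM in nTg, 3339 ± 340 in Clec7a-KO, 3939 ± 266 in SOD1G93A and 3463 ± 352 in SOD1G93A/Clec7a-KO. The libraries were at 3558, 3082 and 3571 CPM in nTg and at 3905, 3692 and 4221 CPM in SOD1G93A, without overlap, whereas Clec7a-KO (2889 to 3635 CPM) and SOD1G93A/Clec7a-KO (3173 to 3959.7 CPM) overlapped, and no test of the sum was made. Of 21 members tested, 0 passed edgeR in either comparison, where 0.106% and 0.824% of all genes passed, with 3 members at an unadjusted p under 0.05 in each and 0 by DESeq2. Col4a1 was at 833, 596 and 789.7 CPM in nTg and at 959, 841 and 951 CPM in SOD1G93A. These 2 groups did not overlap, whereas Clec7a-KO (772, 878, 910.5 and 743 CPM) and SOD1G93A/Clec7a-KO (807, 1101, 685 and 827 CPM) did. Lamb2 was at 291, 310.2 and 281 CPM in nTg and at 464, 326 and 303 CPM in SOD1G93A. In Clec7a-KO it was at 303, 339.5, 299.7 and 234 CPM, and in SOD1G93A/Clec7a-KO at 304, 674, 343 and 323 CPM, a range set by the second library. Lama4 was at 158, 118 and 116 CPM in nTg and at 177, 173 and 201 CPM in SOD1G93A (log2 fold change 0.46, SE 0.20, edgeR adjusted p = 0.96). It was at 129, 119.5, 119.4 and 148 CPM in Clec7a-KO and at 159, 164, 149 and 164 CPM in SOD1G93A/Clec7a-KO (0.29, SE 0.18, edgeR adjusted p = 0.746). The Lama4 groups did not overlap in either comparison, but the differences were not past the adjusted threshold. Col15a1 and Col18a1 were among the 3 members at an unadjusted p under 0.05 in both comparisons. Col15a1 was at 36.5, 22.0 and 63.6 CPM in nTg, 80.2, 57.0 and 72.3 CPM in SOD1G93A, 28.3, 45.5, 29.3 and 32.0 CPM in Clec7a-KO and 70.6, 27.3, 81.9 and 56.1 CPM in SOD1G93A/Clec7a-KO. The 27.3 CPM are 3 UMIs, the least taken as detectable, and only that library overlapped with Clec7a-KO. The log2 fold changes of Col15a1 were 0.88 (SE 0.33, edgeR adjusted p = 0.876) and 0.93 (SE 0.32, 0.331). Those of Col18a1 were 1.03 (SE 0.46, edgeR adjusted p = 0.97) and 1.05 (SE 0.48, 0.565), and the groups of both genes overlapped in both comparisons. The other members at that level were Lama4 in the first comparison and Col4a3 in the second. Group means of Lamc3 were 204 (nTg), 177 (Clec7a-KO), 218 (SOD1G93A) and 191 CPM (SOD1G93A/Clec7a-KO). Lamc1 means ran from 352 to 483 CPM, those of Lama2, the alpha chain of laminin 211, from 201 to 279 CPM, and those of Col1a2 from 121 to 159 CPM. A cluster led by Vtn, Mgp and Kcnj8 held 71.0% of the nTg mural cells and one led by Vtn, Ifitm1 and Kcnj8 79.2% of those of SOD1G93A.

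**Figure D3:**
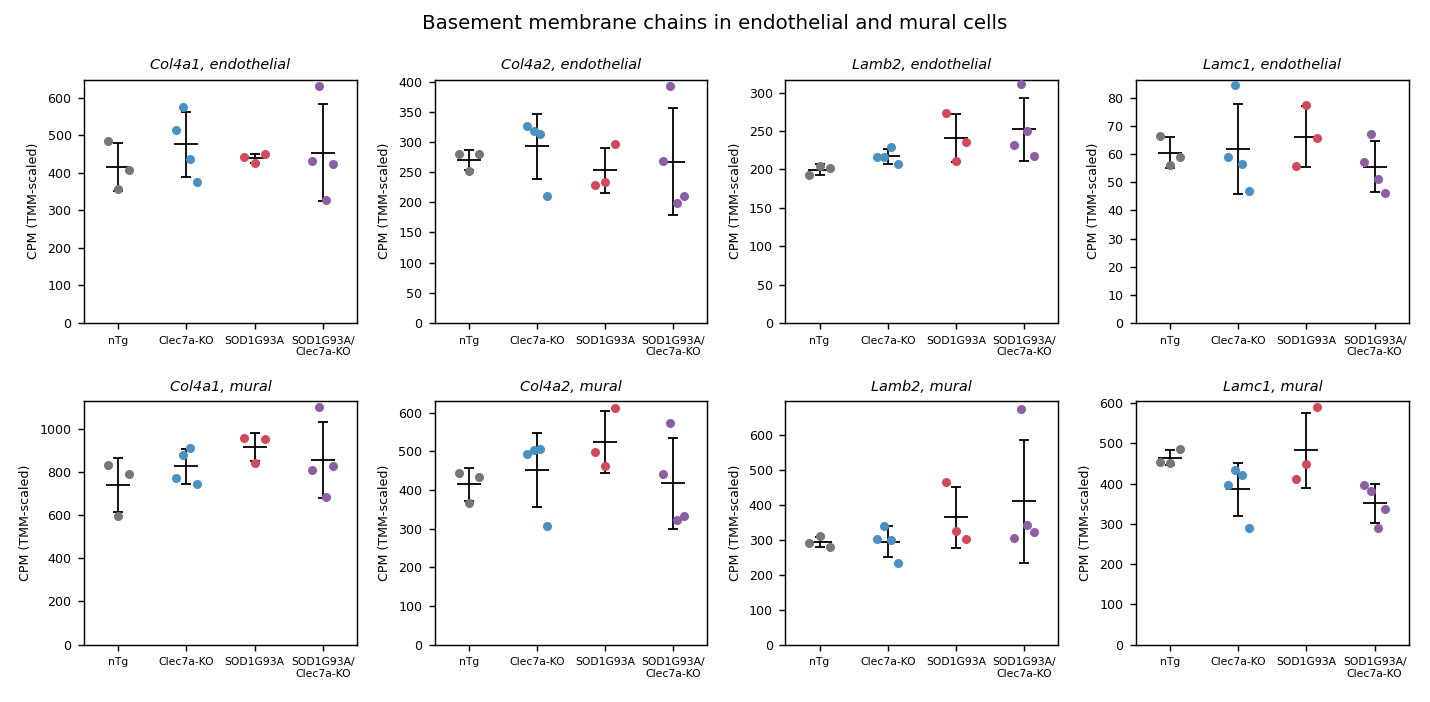
Levels of the vascular members in endothelial and mural cells by group. Points are libraries and bars the group mean and SD, in CPM. The 4 groups overlap in endothelial Col4a1, from 327 to 633 CPM.

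The mixed endothelial and mural cells had 33 members tested and 0 passed edgeR in either comparison, beside 0.742% and 1.02% of all genes. One member passed at an unadjusted p under 0.05 in SOD1G93A against nTg and 3 in SOD1G93A/Clec7a-KO against Clec7a-KO. The lowest adjusted p was that of Col18a1 in the latter, 0.0785, and DESeq2 called 1 member there and 0 in the former.

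In the fibroblasts no test was made, since only 2 libraries had the planned minimum of 10 cells, and the pooled levels of the groups are given as a description. Col1a1 was at 2025 CPM in nTg (95% Poisson interval 1764 to 2314), 1703 (1492 to 1936) in Clec7a-KO, 1654 (1447 to 1881) in SOD1G93A and 2353 (1968 to 2793) in SOD1G93A/Clec7a-KO. Col3a1 was at 2259.8, 1434, 1926 and 1455 CPM in the same order, and Col15a1 at 1407, 1106, 1346 and 1886 CPM. Lama1 was at 609 CPM in nTg and 240.2, 401 and 431 CPM in the other groups. The groups held 21, 25, 27 and 19 fibroblasts, of which the second Clec7a-KO library gave 13 and the second SOD1G93A library 15, and the share of fibroblasts was 0.137%, 0.114%, 0.124% and 0.0866% of the kept cells.

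In astrocytes, 10 and 11 of the 22 members tested passed the test in the 2 transgene comparisons, 9 of them upward in each. The summed member level was 703 ± 48.0 CPM in nTg, 744 ± 36.6 in Clec7a-KO, 1031 ± 155 in SOD1G93A and 1027 ± 205 in SOD1G93A/Clec7a-KO. Of the 55 members, those 22 passed the low-count filter. In SOD1G93A against nTg, 9 rose and 1 fell, where 17.5% of all tested genes rose and 15.1% fell. In SOD1G93A/Clec7a-KO against Clec7a-KO, which shares no library with that comparison, 9 rose and 2 fell, beside 18.5% and 15.4% of all genes. The median log2 fold change of the tested members was 0.57 and 0.44, against -0.01 and -0.03 for all tested genes. Those that rose in both comparisons were 8 (Col4a6, Col5a1, Col5a2, Col5a3, Col11a1, Col12a1, Lamb2 and Lamc1), and 1 (Col1a1) fell in both. The share of all tested genes that passed in both comparisons is not given here, so these 2 counts are a description only.

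Promoters are shown for 4 of the 8 genes that rose in both comparisons, those with a RefSeq window free of annotated exons. Each line gives the 250 bases before the start site on the gene's strand from RefSeq (GRCm38.p6), and capitals mark the motifs CCAAT (the CCAAT box), GGGCGG (the GC box) and TGANTCA (the AP-1 site), searched on both strands, with no overlap between motifs.
Col4a6, chrX:141474077-141474326, minus strand: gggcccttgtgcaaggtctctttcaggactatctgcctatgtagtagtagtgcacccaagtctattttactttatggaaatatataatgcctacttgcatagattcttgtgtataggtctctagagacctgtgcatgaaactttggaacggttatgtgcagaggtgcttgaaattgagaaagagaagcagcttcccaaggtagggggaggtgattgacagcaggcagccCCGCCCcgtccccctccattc
Col5a1, chr2:27886175-27886424, plus strand: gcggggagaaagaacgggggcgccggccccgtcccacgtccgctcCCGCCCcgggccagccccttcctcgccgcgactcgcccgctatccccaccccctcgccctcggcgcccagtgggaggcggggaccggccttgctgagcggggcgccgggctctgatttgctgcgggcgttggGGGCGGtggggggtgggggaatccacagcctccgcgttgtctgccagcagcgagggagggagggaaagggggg
Col5a3, chr9:20815068-20815317, minus strand: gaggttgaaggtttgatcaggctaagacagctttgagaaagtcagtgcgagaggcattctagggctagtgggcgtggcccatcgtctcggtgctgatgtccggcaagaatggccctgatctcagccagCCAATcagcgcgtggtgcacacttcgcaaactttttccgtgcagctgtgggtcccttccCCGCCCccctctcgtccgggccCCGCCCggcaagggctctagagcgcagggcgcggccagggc
Col11a1, chr3:114030290-114030539, plus strand: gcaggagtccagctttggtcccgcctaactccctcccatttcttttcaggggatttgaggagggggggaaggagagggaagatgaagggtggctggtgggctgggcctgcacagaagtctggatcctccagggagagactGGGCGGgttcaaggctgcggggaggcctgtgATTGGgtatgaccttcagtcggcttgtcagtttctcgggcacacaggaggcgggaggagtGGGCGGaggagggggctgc
All 4 windows hold a GC box, 2 of them a CCAAT box, and none the AP-1 letters. Over 32851 windows of this length in the table, 32.7% hold a GC box, 33.8% a CCAAT box and 6.75% an AP-1 match. Among the 44 windows of the 40 members found in the table these counts were 24, 14 and 1. A match is a description of the letters only.

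The fibrillar collagen genes that rose in astrocytes in both comparisons were the 3 type V chains Col5a1, Col5a2 and Col5a3 and 1 type XI chain, Col11a1, while Col11a2 did not pass the test. Types V and XI form the core of thin fibrils and limit their diameter. Col5a1, the alpha 1 chain of type V, was at 2.54, 2.73 and 1.64 CPM in nTg and at 8.11, 26.7 and 14.5 CPM in SOD1G93A, without overlap (log2 fold change 2.82, SE 0.50, edgeR adjusted p = 0.000374). Its Clec7a-KO libraries were at 5.82, 2.55, 1.91 and 1.78 CPM, and in SOD1G93A/Clec7a-KO at 22.9, 18.5, 15.3 and 0 CPM (2.33, SE 0.45, edgeR adjusted p = 0.000579). The 0 belongs to the fourth library, which had 35 astrocytes, so that 3 UMIs, the least taken as detectable, would be 19.7 CPM there.

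Col5a3, the alpha 3 chain, was at 30.2, 46.1 and 28.7 CPM in nTg and at 102, 108 and 100.2 CPM in SOD1G93A. It was at 67.4, 48.4, 83.9 and 58.0 CPM in Clec7a-KO and at 136, 199, 137 and 118 CPM in SOD1G93A/Clec7a-KO. Every transgenic library lay above every library without the transgene, with log2 fold changes of 1.56 (SE 0.23, edgeR adjusted p = 7.06e-05) and 1.22 (SE 0.20, 0.000141). Col5a2 rose by 1.20 (SE 0.30, edgeR adjusted p = 0.00584) and 1.02 (SE 0.31, 0.0166), and the second call was lost without the second SOD1G93A/Clec7a-KO library (0.0639).

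Col11a1 was at 14.1, 5.16 and 8.93 CPM in nTg and at 20.3, 63.8 and 67.3 CPM in SOD1G93A (log2 fold change 2.46, SE 0.41, edgeR adjusted p = 0.000209). The Clec7a-KO libraries had 5.47, 5.09, 5.72 and 1.78 CPM, all below the SOD1G93A/Clec7a-KO libraries with 21.6, 42.9, 52.5 and 6.58 CPM (2.73, SE 0.46, edgeR adjusted p = 0.000169). This gene leads in neurons, and 6.58 CPM is 1 UMI in the library of 35 astrocytes.

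Col12a1, which binds to the surface of fibrils, was at 24.6, 25.8 and 22.1 CPM in nTg and at 64.9, 74.2 and 111 CPM in SOD1G93A (log2 fold change 1.82, SE 0.26, edgeR adjusted p = 5.25e-05). It was at 29.1, 29.5, 28.2 and 19.6 CPM in Clec7a-KO and at 93.4, 91.7, 52.5 and 26.3 CPM in SOD1G93A/Clec7a-KO (1.48, SE 0.24, 0.00013), where the library with 35 astrocytes lay among those without the transgene. Col16a1, a related fibril-associated collagen, did not pass the test in SOD1G93A against nTg. It rose in SOD1G93A/Clec7a-KO against Clec7a-KO (1.13, SE 0.37, edgeR adjusted p = 0.0246), from 43.4, 47.9, 82.8 and 84.7 CPM to 64.5, 80.0, 288 and 164 CPM. That call rested on the third library: without it the log2 fold change was 0.42 and the adjusted p 0.305. It also missed the threshold without the first or the second Clec7a-KO library (0.0726 and 0.0665).

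Among the basement membrane chains, Lamb2 and Lamc1 rose in astrocytes in both comparisons. Lamb2 was at 56.2, 52.2 and 65.1 CPM in nTg and at 135, 133 and 112 CPM in SOD1G93A (log2 fold change 1.12, SE 0.19, edgeR adjusted p = 0.000329). Its Clec7a-KO libraries were at 54.7, 77.4, 67.9 and 60.7 CPM and in SOD1G93A/Clec7a-KO at 128, 158, 134 and 72.3 CPM (1.01, SE 0.18, 0.000274). The low library is again the one with 35 astrocytes, and the other transgenic libraries all lay above 77.4 CPM.

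Lamc1 was at 16.4, 13.1 and 14.3 CPM in nTg, 15, 17.8, 14.9 and 8.03 CPM in Clec7a-KO, 26.4, 30.2 and 30.1 CPM in SOD1G93A and 31.1, 34.1, 33.9 and 19.7 CPM in SOD1G93A/Clec7a-KO. No transgenic library overlapped with one without the transgene, although the 19.7 CPM of the library with 35 astrocytes are 3 UMIs, the detection floor, and the log2 fold changes were 0.99 (SE 0.22, edgeR adjusted p = 0.00195) and 1.13 (SE 0.21, 0.000427).

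Col4a6 and Col4a5 encode the alpha 6 and alpha 5 chains of type IV collagen and lie head to head on the X chromosome, with 1308 bases between their outermost starts. Col4a6 was at 0.565, 0 and 0.470 CPM in nTg and at 3.04, 7.76 and 6.26 CPM in SOD1G93A (log2 fold change 3.83, SE 0.68, edgeR adjusted p = 0.000379). Its Clec7a-KO libraries were at 0.529, 1.02, 0 and 0.892 CPM and in SOD1G93A/Clec7a-KO at 4.33, 3.90, 5.08 and 0 CPM (2.82, SE 0.69, 0.00396). These values rest on 55 UMIs in all astrocytes, and the fitted fold change depends on the prior count near 0. Col4a5 was at 23.5, 19.4 and 24.7 CPM in nTg and at 26.4, 52.6 and 35.2 CPM in SOD1G93A (0.75, SE 0.24, edgeR adjusted p = 0.0232). The call was lost without the second SOD1G93A library (log2 fold change 0.47, adjusted p = 0.169), without the third (0.0513) or without the second nTg library (0.0852). In the comparison without Clec7a its log2 fold change was 0.20 (adjusted p = 0.573), and the difference between the 2 comparisons was not past the interaction test.

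Type I collagen went the other way. Col1a1 was at 21.8, 41.0 and 47.7 CPM in nTg astrocytes and at 11.2, 18.1 and 15.3 CPM in SOD1G93A, and it fell by 1.29 on the log2 scale (SE 0.31, edgeR adjusted p = 0.00344). In Clec7a-KO it was at 29.5, 22.4, 45.4 and 36.6 CPM and in SOD1G93A/Clec7a-KO at 18.6, 15.6, 22.0 and 19.7 CPM, and it fell by 0.85 (SE 0.30, edgeR adjusted p = 0.0336). The groups did not overlap within either comparison. Col1a2 fell in SOD1G93A/Clec7a-KO against Clec7a-KO by 0.69 (SE 0.23, edgeR adjusted p = 0.0248) and had a log2 fold change of -0.47 (0.136) in SOD1G93A against nTg. Both calls in the comparison without Clec7a were lost without single libraries, Col1a1 without SOD1G93A/Clec7a-KO 1 or 2 or Clec7a-KO 3 or 4 (adjusted p = 0.0546 to 0.117) and Col1a2 without SOD1G93A/Clec7a-KO 1, 2 or 3 or Clec7a-KO 2 (0.0523 to 0.0962). Without clusters of a second class the adjusted p of Col1a2 was 0.134, and that of Col1a1 was 0.128 with at most 10% mitochondrial UMIs. In other classes the level of Col1a1 was 1848 CPM in the pooled fibroblasts, and its means were 5.41 CPM in mural cells, 2.77 CPM in border-associated macrophages and at most 0.533 CPM in the rest. The 12 fibroblast markers summed to 105 to 132 CPM in nTg astrocytes, 135 to 153 in Clec7a-KO, 129 to 132 in SOD1G93A and 86.8 to 156 in SOD1G93A/Clec7a-KO.

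The other astrocyte members with high levels did not pass the test. Group means in the order nTg, Clec7a-KO, SOD1G93A and SOD1G93A/Clec7a-KO were 86.6, 99.1, 80.3 and 72.1 CPM for Col11a2, 63.1, 52.3, 92.2 and 55 CPM for Col23a1, a transmembrane collagen, 52.7, 51.9, 57.5 and 54.0 CPM for Col9a3, and 40.6, 44.6, 53.6 and 58.0 CPM for Col27a1. In both comparisons 16 of the 22 tested members had a positive log2 fold change, beside 49.2% and 47.8% of all tested genes.

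**Figure D4:**
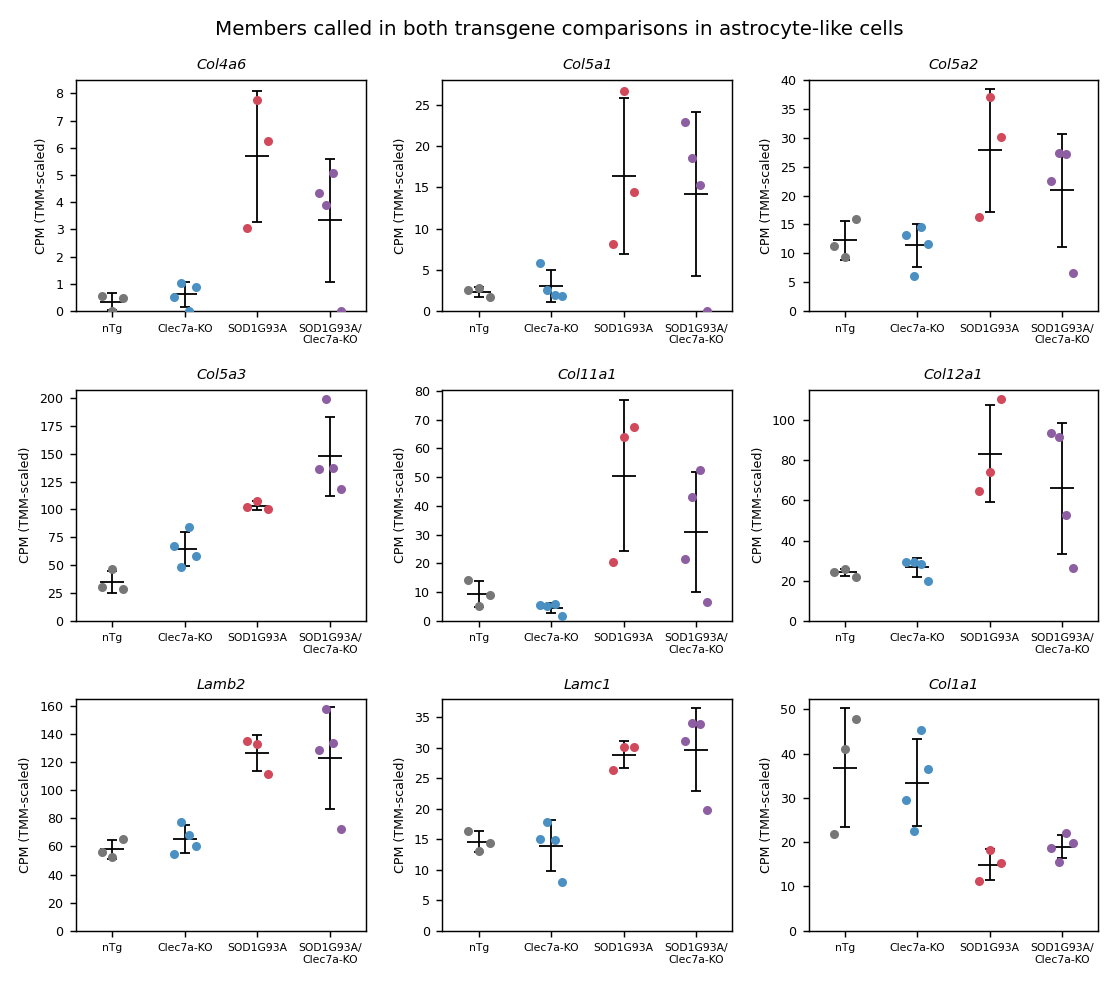
Levels in astrocytes of the 9 members that passed the test in both comparisons, by group. Points are libraries and bars the group mean and SD, in CPM. Col5a3 lies between 28.7 and 83.9 CPM without the transgene and between 100.2 and 199 CPM with it.

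Other properties of the astrocyte class moved with the transgene too. Different clusters held the class: those led by Slc7a10 held 57.1% and 24.1% of the nTg astrocytes, and those led by Gfap, Agt and Aqp4 and by S100a6, Gfap and C3 held 45.2% and 27.2% of the SOD1G93A astrocytes. The 12 microglial markers summed to 189 to 315 CPM in nTg astrocytes, 211 to 639.6 in Clec7a-KO, 964 to 3205 in SOD1G93A and 1391 to 7172 in SOD1G93A/Clec7a-KO. The 12 mural markers summed to 132 to 181, 138 to 224, 259 to 434 and 197 to 408 CPM. In microglia themselves the mean levels were 0.0264 CPM for Col4a6, 0.101 for Col5a1, 0.366 for Col5a3, 0.193 for Col11a1, 0.146 for Col12a1, 0.0850 for Col5a2, 9.27 for Lamb2 and 6.52 for Lamc1. In mural cells Lamc1 (414 CPM), Lamb2 (342 CPM), Col5a2 (36.5 CPM) and Col4a6 (11.3 CPM) were above their astrocyte means of 21.8, 93.3, 17.8 and 2.42 CPM. The part of microglial and mural RNA in the astrocyte results was not tested. With clusters left out whose second class was above a log2 fold of 3, a setting chosen after the data were seen, 11 and 10 members passed, beside 33.3% and 29.0% of all tested genes. Astrocyte shares of the kept cells were 12.4% ± 5.06, 9.74% ± 4.17, 3.87% ± 1.63 and 2.84% ± 1.45.

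The partners of collagens and laminins were followed with lists by role, whose astrocyte counts stand beside 17.5% of all genes that rose and 15.1% that fell in SOD1G93A against nTg and 18.5% and 15.4% in SOD1G93A/Clec7a-KO against Clec7a-KO. Of 16 tested genes on a list of basement membrane and other matrix partners, 10 rose and 0 fell in SOD1G93A against nTg astrocytes (median log2 fold change 1.69). The largest changes were in Fmod (5.30), a small proteoglycan that binds collagen fibrils, Fn1 (4.96), which encodes fibronectin, and Nid2 (3.36), which links laminin to type IV collagen. In SOD1G93A/Clec7a-KO against Clec7a-KO, 8 rose and 0 fell (median 1.29), led by Fmod (5.74), Fn1 (3.96) and Npnt (3.25). Of 15 receptors, 5 rose (median 0.57), among them Sdc1 (3.74), Ddr1 (1.49), a receptor tyrosine kinase for collagen, and Mrc2 (1.46), which takes up collagen. The comparison without Clec7a gave 7 (median 0.74), with Sdc1 (3.67), the integrin chain Itga2 (2.69) and Mrc2 (2.10).

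Of 23 enzymes of collagen synthesis and maturation, 7 rose and 2 fell in SOD1G93A against nTg (median 0.30, beside 17.5% and 15.1% of all genes), with Loxl2 (2.77), P3h2 (2.56) and Tgm2 (2.54), enzymes that crosslink or hydroxylate the chains, changing the most. The other comparison gave 8 and 2 (median 0.41), with P3h2 (2.93), Loxl2 (2.65) and Tgm2 (2.39). Of 18 fibrogenic signals and targets, 9 rose and 1 fell (median 1.05), led by Tgfbi (4.24), Pdgfb (3.02) and Ccn1 (2.53), and 10 rose and 0 fell in the other comparison (median 1.41), among them Tgfbi (4.17) and Tgfb1 (3.47). The microglial markers in these astrocyte libraries also rose with the transgene, as given above. Levels of the list genes in microglia are not given here, and the part of microglial RNA in the counts of all 4 lists was not tested. Endothelial cells had 0 of 71 tested genes of the 4 lists past the edgeR test in both comparisons, beside 0.629% and 0.826% of all genes, with 10 and 7 at an unadjusted p under 0.05 and 1 each by DESeq2. Mural cells had 0 and 1 of 63, beside 0.106% and 0.824%, with 1 and 5 at an unadjusted p under 0.05 and 0 and 1 by DESeq2. The one was Emilin1, an elastic fibre protein, which rose by 1.32 (SE 0.27, edgeR adjusted p = 0.0133) in SOD1G93A/Clec7a-KO against Clec7a-KO. Without Clec7a-KO 2 or without Clec7a-KO 3, 0 genes of the lists passed there, so this call was lost.

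In microglia the summed member level was lower in every library with the transgene than in any without it, and no test of the sum was made. It was 203 ± 15.1 CPM in nTg and 191 ± 18.0 in Clec7a-KO, against 100 ± 6.30 in SOD1G93A and 96.3 ± 10.2 in SOD1G93A/Clec7a-KO. Col27a1 made up most of the sum without the transgene, and its mean fell by more than the sum in both comparisons. After TMM scaling the fall is therefore that of Col27a1, and the mean sum of the other members was slightly higher with the transgene. The direction of that small difference depends on the TMM factors given below and is reversed without them. It also includes Lama3, whose split across the groups is described under the other observations. Its means were 0.537, 0.356, 3.36 and 5.51 CPM in nTg, Clec7a-KO, SOD1G93A and SOD1G93A/Clec7a-KO. Of 20 tested members, 3 rose and 3 fell in SOD1G93A against nTg, beside 19.9% of all genes that rose and 13.3% that fell. In SOD1G93A/Clec7a-KO against Clec7a-KO, 3 rose and 6 fell, beside 25.9% and 21.1%. The TMM factors differed between groups (means of 1.22, 1.17, 0.888 and 0.812), and without them the median log2 fold change of all genes moved by -0.46 and -0.52. Clusters led by P2ry12 and Tmem119 and by Xist and P2ry12 held 39.1% and 56.9% of the nTg microglia, and one led by Clec7a and Cxcl10 held 44.6% of those of SOD1G93A. The cluster led by Xist held 12.8% of the microglia in Clec7a-KO, 0% in SOD1G93A and 0.456% in SOD1G93A/Clec7a-KO. Fits with the Xist level as a covariate are given below for this reason. In astrocytes 10 members passed with that covariate in each transgene comparison, beside 18.1% (SOD1G93A against nTg) and 30.8% (SOD1G93A/Clec7a-KO against Clec7a-KO) of all tested genes. The sex of the animals was not compared between the groups.

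Col27a1, a fibrillar collagen known from cartilage, was at 176, 152 and 159 CPM in nTg microglia and at 50, 48.1 and 49.5 CPM in SOD1G93A. It was at 141, 158, 160.4 and 121 CPM in Clec7a-KO and at 47.7, 38.3, 37.7 and 49.6 CPM in SOD1G93A/Clec7a-KO. No libraries overlapped across the transgene. It fell by 1.72 (SE 0.15, edgeR adjusted p = 1.94e-06) and by 1.74 (SE 0.13, 2.21e-07) on the log2 scale, and without TMM factors by 2.18 and 2.27. A RefSeq promoter window of Col27a1, free of annotated exons but inside the span that GENCODE gives the gene, is shown as that of the member with the most microglial UMIs (43564), with the motifs in capitals as above.
Col27a1, chr4:63215162-63215411, plus strand: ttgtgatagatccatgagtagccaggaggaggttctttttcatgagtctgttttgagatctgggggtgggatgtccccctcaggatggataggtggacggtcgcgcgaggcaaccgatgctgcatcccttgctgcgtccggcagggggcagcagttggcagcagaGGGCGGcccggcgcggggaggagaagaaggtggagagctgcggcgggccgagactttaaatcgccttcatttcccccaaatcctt
It holds 1 GC box.

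Col15a1 had means of 19.0 ± 0.869 CPM (n = 3) in nTg and 14.6 ± 1.15 (n = 3) in SOD1G93A microglia, and it fell by 0.38 (SE 0.13, edgeR adjusted p = 0.0346). In Clec7a-KO and SOD1G93A/Clec7a-KO its means were 19.8 ± 2.06 and 14.1 ± 1.08 CPM (n = 4 each), and it fell by 0.50 (SE 0.11, edgeR adjusted p = 0.00238). The first call was lost without any single SOD1G93A or nTg library (0.0548 to 0.114). Lamc1 was at 4.03, 3.48 and 3.65 CPM in nTg and at 9.70, 9.38 and 8.20 CPM in SOD1G93A (log2 fold change 1.28, SE 0.18, edgeR adjusted p = 0.000106). Without Clec7a it rose by 0.98 (SE 0.15, 0.000142).

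Lamb2 was at 3.87, 6.04 and 6.13 CPM in nTg and at 12.2, 8.91 and 10.7 CPM in SOD1G93A, and at 9.04, 5.09, 5.16 and 7.63 CPM in Clec7a-KO and 12, 16.1, 15.5 and 11.3 CPM in SOD1G93A/Clec7a-KO. It rose by 1.00 (SE 0.25, edgeR adjusted p = 0.00751) and 1.03 (SE 0.22, 0.0015), but not without TMM factors (0.55, adjusted p = 0.0876, and 0.51, 0.0554). Endothelial markers, 12 genes summed, were at 63.7 to 103 CPM in nTg microglia, 51.6 to 85.8 in Clec7a-KO, 153.5 to 191 in SOD1G93A and 83.5 to 221 in SOD1G93A/Clec7a-KO, and their part in the Lamb2 result was not tested. The remaining calls in microglia were at group means under 2 CPM. Col9a2 rose by 1.70 and 1.43, Col6a3 fell by 1.90 and 3.09, and Col11a2, Col4a1 and Col4a2 fell by 1.11, 0.75 and 1.28 in SOD1G93A/Clec7a-KO against Clec7a-KO. Over all kept cells the mean of Col4a1 was 184 CPM in Clec7a-KO and 46.6 CPM in SOD1G93A/Clec7a-KO, and in mural cells it was 835 CPM. The part of RNA from other cells in these low calls was not tested. The first Col6a3 call was lost without SOD1G93A 2 (0.0506) or nTg 1 (0.0582), and the Col4a1 call without any one of 5 libraries, SOD1G93A 2, SOD1G93A/Clec7a-KO 2 or 4 or Clec7a-KO 1 or 2 (0.0510 to 0.167). With the Xist level as a covariate 3 members passed in SOD1G93A against nTg, beside 21.4% of all genes, and Lamb2, Col15a1 and Col6a3 were lost (adjusted p = 0.0764, 0.0847 and 0.121).

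In oligodendrocyte precursors, the proliferating glia that carry much of the cartilage-type collagen, 16 members were tested. In SOD1G93A against nTg, 2 rose and 0 fell, beside 1.31% and 0.317% of all genes, and in SOD1G93A/Clec7a-KO against Clec7a-KO 3 rose and 2 fell, beside 3.68% and 1.34%. A cluster led by Olig1, Cspg5 and Vcan held 82.2% of the SOD1G93A precursors and 0.116% of those of nTg. Col20a1, a fibril-associated collagen, was at 1.5, 1.40 and 1.09 CPM in nTg and at 13.9, 17.1 and 10.3 CPM in SOD1G93A (log2 fold change 3.34, SE 0.39, edgeR adjusted p = 0.000115). The Clec7a-KO libraries had 2.21, 3.08, 2.21 and 2.53 CPM and those of SOD1G93A/Clec7a-KO 14.3, 6.49, 10.3 and 5.4 CPM (1.97, SE 0.36, edgeR adjusted p = 0.00396). All transgenic libraries were above the others, and the 2 fold changes did not differ past the interaction test.

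Col16a1 was at 55.1, 43.4 and 59.7 CPM in nTg precursors and at 111, 138 and 163 CPM in SOD1G93A (log2 fold change 1.37, SE 0.19, edgeR adjusted p = 0.000623). It was at 66.1, 55.4, 62.5 and 76.0 CPM in Clec7a-KO and at 103, 155, 139.6 and 117 CPM in SOD1G93A/Clec7a-KO (0.98, SE 0.17, 0.00302), again without overlap. Col5a3 fell by 1.00 (SE 0.17, edgeR adjusted p = 0.00234) in SOD1G93A/Clec7a-KO against Clec7a-KO, from 49.8, 56.9, 48.5 and 50.7 CPM to 27.7, 24.9, 26.0 and 23.4 CPM. Its log2 fold change in SOD1G93A against nTg was -0.67 (0.0652).

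Col27a1 fell by 0.97 (SE 0.18, edgeR adjusted p = 0.0045) in the same comparison, from 116, 112, 158 and 98.8 CPM to 55.8, 78.9, 62.3 and 48.6 CPM, and its log2 fold change with Clec7a present was -0.75 (0.0625). Col4a1 rose by 0.84 (SE 0.23, edgeR adjusted p = 0.0431) without Clec7a, a call lost without any one of 12 libraries, all but SOD1G93A 1 and SOD1G93A/Clec7a-KO 1 (adjusted p up to 0.123). In ependymal cells, which line the central canal, 28 members were tested. None passed in SOD1G93A against nTg (1.05% of all genes did, 4 members had an unadjusted p under 0.05, and DESeq2 called 0), and 1, Col5a3, fell in SOD1G93A/Clec7a-KO against Clec7a-KO (1.6% of all genes). Its ependymal means were 61.7, 62.8, 37.7 and 38.5 CPM in nTg, Clec7a-KO, SOD1G93A and SOD1G93A/Clec7a-KO, and it fell by 0.69 (SE 0.17, edgeR adjusted p = 0.0466). The call was lost without any one of 10 libraries, all but SOD1G93A 1 and 3, nTg 1 and Clec7a-KO 1 (up to 0.179), and with the replicate block (0.0832).

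**Figure D5:**
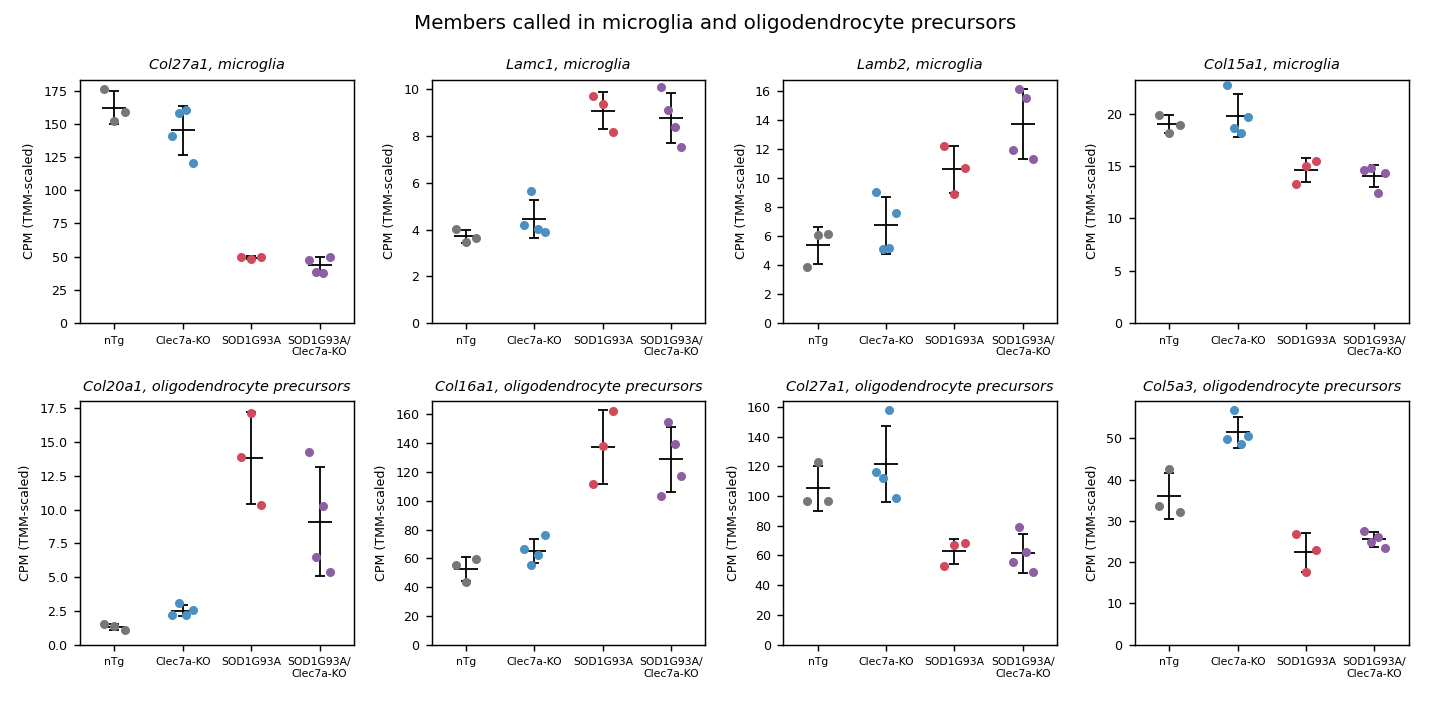
Levels of members in microglia and oligodendrocyte precursors by group. Points are libraries and bars the group mean and SD, in CPM. Microglial Col27a1 lies between 121 and 176 CPM without the transgene and between 37.7 and 50 CPM with it.

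No member passed the test for loss of Clec7a in endothelial cells, mural cells, astrocytes, microglia or oligodendrocyte precursors. In Clec7a-KO against nTg and in SOD1G93A/Clec7a-KO against SOD1G93A, edgeR called 0 members in endothelial cells (0% and 0.00758% of all genes), mural cells (0% and 0%), astrocytes (0% and 0.0155%), microglia (0.0301% and 0.018%) and oligodendrocyte precursors (0.0151% and 0.00755%). At an unadjusted p under 0.05 the counts in these 5 classes were 1, 0, 1, 0 and 2 in the first comparison and 2, 2, 2, 2 and 3 in the second, and DESeq2 called 0 in all. The interaction of transgene and Clec7a gave 0 members in each, with 1, 0, 0, 0 and 2 at an unadjusted p under 0.05, beside 0.00758% of all genes in endothelial cells and 0% in the other 4 classes. In SOD1G93A/Clec7a-KO against SOD1G93A the lowest adjusted p was 0.672 in endothelial cells (Col18a1) and 0.509 in mural cells (Col5a3). These tests do not show that the groups were alike.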

How the data were processed

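The authors deposited raw UMI counts per gene and barcode, with no normalization; per the submitters' processing notes the build was mm10 and Cell Ranger, Seurat and DESeq2 were used, and per the file headers Cell Ranger was version 3.0.2. Barcodes with at least 500 genes, 1000 UMIs and at most 15% mitochondrial UMIs were kept, and the highest Scrublet doublet scores were removed at 0.8% per 1000 barcodes. Clusters came from 2000 variable genes without members, 30 principal components, 15 neighbours and Leiden resolution 1.0 (scanpy 1.11.5), with a second round for clusters of mixed markers, and were named from marker lists. A cluster whose second class exceeded a log2 fold of 5.0 stayed apart. The second round, this limit and the tests in microglia, precursors, ependymal and mixed cells were added after seeing the data. UMIs were summed per library and class, with at least 10 cells, and tested with edgeR 4.0.16 (TMM, filterByExpr, 1 quasi-likelihood fit of 14 libraries, two-sided, Benjamini-Hochberg over all tested genes, adjusted p under 0.05). The SE of a log2 fold change was derived from the test statistic. DESeq2 1.42.0 was an alternative. The steps were tested on simulated counts. Intervals and the floor of 3 UMIs cover counting error only. Positions are from GENCODE vM21. Named were the 8 members with the highest mean level in endothelial cells, mural cells, fibroblasts and astrocytes, and in any class those past the test (of other lists, the 3 with the largest change); 1 gene of another list is not reported here. Members and lists were chosen with earlier results of these data known. Columns of other samples numbered 0.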

Additional observations from a re-analysis of the deposited data

Results flagged for a closer look

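In 9 of 94 groups of 4 libraries 1 value lay far from the other 3, its gap to the nearest, as a part of the whole range, exceeding Dixon's 95% critical value. Chance flags about 5% of such groups. In endothelial Clec7a-KO cells, Col4a2 was at 211 CPM in the fourth library and at 314 to 327 CPM in the others. In mural Clec7a-KO cells the same library had 308 CPM of Col4a2, against 494 to 505 CPM. Mural Lamb2 was at 674 CPM in the second SOD1G93A/Clec7a-KO library and at 304 to 343 CPM in the others.

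The fourth Clec7a-KO library also stood apart in astrocytes for 4 members: Col11a1 was at 1.78 CPM (others 5.09 to 5.72), Col12a1 at 19.6 CPM (28.2 to 29.5), Col11a2 at 137 CPM (82.0 to 89.8) and Col27a1 at 61.5 CPM (36.5 to 40.2). In the third SOD1G93A/Clec7a-KO library, astrocyte Col11a2 was at 136 CPM (42.8 to 57.6) and Col27a1 at 69.5 CPM (52.6 to 55.4). No member's response to the transgene differed between libraries with and without Clec7a past the interaction test of edgeR.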

How the results depend on the processing

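Over 182 fits, 50 counts and other main results were followed, of which 33 kept their side in every setting, and of 44 fold changes past the threshold 32 stayed past it in every setting and 0 reversed. Leaving out single libraries lost 10 of the 44, the Xist level as a covariate 6, the limit of 10% mitochondrial UMIs and the fit without TMM factors 3 each, the library number as a covariate and the fit without a low-count filter 2 each, and the replicate block and Leiden resolution 0.5 1 each. The fits without TMM factors and those without clusters of a second class (2 lost) were chosen after seeing the data.

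The counts of members and list genes in this section are given without the share of all genes under the same setting. That share can move as well, for instance from 32.6% to 18.1% in astrocytes with Xist (SOD1G93A against nTg). The counts therefore describe the settings and are not a trait of the members. Member counts moved by more than 1.5 times as follows. Without the low-count filter they were 1 in endothelial cells (SOD1G93A against nTg), 1 in astrocytes (Clec7a-KO against nTg), 4 in precursors and 2 in ependymal cells (SOD1G93A against nTg), 2 in ependymal and 1 in mixed cells (SOD1G93A/Clec7a-KO against Clec7a-KO), 1 in ependymal and 1 in mixed cells (Clec7a-KO against nTg) and 1 in ependymal cells (SOD1G93A/Clec7a-KO against SOD1G93A). Mixed cells gave 1 in SOD1G93A/Clec7a-KO against Clec7a-KO under DESeq2, the replicate block and the library number, where ependymal cells gave 0 under the block, the library number, Xist, the mitochondrial limit and without clusters of a second class. Precursors gave 5 with the library number and microglia 3 with Xist (SOD1G93A against nTg).

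For the 4 other lists together, endothelial cells gave 1 with DESeq2 and 5 without the filter (SOD1G93A against nTg), and 1 with DESeq2, 3 without the filter and 1 each with the replicate block and the library number (SOD1G93A/Clec7a-KO against Clec7a-KO). Mural cells gave 1 without the filter and 1 with the library number, and 2 each without the filter, with the replicate block and with the library number. Astrocyte receptors gave 3 with Xist, 3 with the mitochondrial limit and 4 with the latter in the comparison without Clec7a, and fibrogenic genes 6 with Xist.

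Leaving out 1 library at a time gave 10 to 13 and 8 to 12 astrocyte members in the comparisons with and without Clec7a, 0 to 1 ependymal members in both, 0 to 1 mixed members (without Clec7a), 2 to 4 precursor members (with it), 0 to 1 genes of the other lists in endothelial cells in both and in mural cells without Clec7a (Emilin1), and 3 to 7 astrocyte receptors with it. Causes were not tested. Fits of fibroblasts were not made, with 2 libraries of at least 10 cells. Over 19 pairs of libraries with the same replicate number the correlation of deviations had a median of 0.183 in endothelial cells, 0.0570 in mural cells and 0.0860 in astrocytes, with 12, 7 and 9 over 0.1. Pairs with different numbers had lower medians, -0.0660, -0.0359 and -0.0504, so libraries of the same number may share a source of variation. The labels do not name one, and the main fits did not pair the libraries. The replicate block is given as an alternative. The block changed the ependymal Col5a3 call alone among the 44. Depth limits the library with 35 astrocytes, where 3 UMIs are 19.7 CPM, and the 92 fibroblasts. It also limits the mural cells of the second SOD1G93A/Clec7a-KO library, where 3 UMIs are 27.3 CPM.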

Other observations

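Lama3, the alpha chain of laminin 332, split the libraries in a way that crossed the groups. In microglia it was at 1.48 CPM (49 UMIs) in the first nTg library, 1.30 CPM (37 UMIs) in the second Clec7a-KO library, 9.74 CPM (771 UMIs) in the third SOD1G93A library and 11.9 and 9.99 CPM (890 and 591 UMIs) in the first and second SOD1G93A/Clec7a-KO libraries. The other 9 libraries had 0 to 0.179 CPM. The same 5 libraries were highest in ependymal cells, at 42.4, 38.9, 48.0, 44.8 and 43.7 CPM, against 0 to 17.4 CPM in the others. In endothelial cells Lama3 ranged from 1.82 to 7.96 CPM, and these 5 libraries did not stand apart. The split was noticed in the data, is not one of the study's groups and was not tested.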
